A study of Mus musculus with 8 samples.

Results

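The immediate early response genes are a set of 10 genes that cells switch on within minutes of a stimulus, without first making new protein. They were Fos, Fosb, Jun, Junb, Jund, Egr1, Ier2, Nr4a1, Dusp1 and Atf3, chosen by gene symbol from the array's platform annotation. All 10 were measured, each by 1 probe set, among 19938 genes in all. RNA of flow-sorted bone marrow cells of C57BL/6J mice was read on 8 Affymetrix arrays, 1 for each independent RNA preparation, and each preparation pooled 4 or 6 mice. The 4 groups of 2 arrays were WT KLS, wild-type mice and KLS cells; TG KLS, ∆Hmga2 mice and KLS cells; WT MEP, wild-type mice and MEP cells; and TG MEP, ∆Hmga2 mice and MEP cells. The sources used here do not give the promoter that drives the altered Hmga2, the number of founder lines or the age of the mice. The labels name no agent for any group, and all cells were flow sorted. KLS cells are the lineage-negative, Sca-1-positive, c-Kit-positive fraction, which holds blood stem cells, whereas MEP cells give rise to red cells and megakaryocytes.

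Growth factors, stress and contact reach these genes through mitogen-activated protein kinases, which act on transcription factors already bound at their promoters. Fos, Fosb, Jun, Junb and Jund encode subunits of AP-1, a dimer of 1 Fos-type and 1 Jun-type protein or of 2 Jun-type proteins. Egr1 and Nr4a1 encode a zinc finger factor and an orphan nuclear receptor, Atf3 a stress-induced factor of the CREB family, Ier2 a small nuclear protein, and Dusp1 a phosphatase that switches the kinases off again. In blood-forming tissue these genes are known both as part of the stem cell programme and as genes that dissociation, staining and sorting can switch on. The level on each array is therefore given before any comparison.

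The promoters of Fos, Fosb, Jun and Dusp1 are shown because these were the 4 members with every KLS array above every MEP array. Each window runs from 250 bases before to 50 bases after the gene's start, 5′ to 3′ on the gene's own strand, from RefSeq on build GRCm38.p6. Capitals mark the cyclic AMP response element (CRE) TGACGTCA, and its core TGACG, read on either strand, where that core is not within a full site. Fos lies at chr12:85473640-85473939 on the plus strand, Fosb at chr7:19309996-19310295, Jun at chr4:95052173-95052472 and Dusp1 at chr17:26508423-26508722, these 3 on the minus strand.
Fos: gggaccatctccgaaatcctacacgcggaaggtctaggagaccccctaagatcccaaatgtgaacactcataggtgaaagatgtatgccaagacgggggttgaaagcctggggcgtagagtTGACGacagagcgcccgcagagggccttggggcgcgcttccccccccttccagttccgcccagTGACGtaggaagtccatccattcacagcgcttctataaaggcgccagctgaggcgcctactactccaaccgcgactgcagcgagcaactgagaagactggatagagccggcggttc
Fosb: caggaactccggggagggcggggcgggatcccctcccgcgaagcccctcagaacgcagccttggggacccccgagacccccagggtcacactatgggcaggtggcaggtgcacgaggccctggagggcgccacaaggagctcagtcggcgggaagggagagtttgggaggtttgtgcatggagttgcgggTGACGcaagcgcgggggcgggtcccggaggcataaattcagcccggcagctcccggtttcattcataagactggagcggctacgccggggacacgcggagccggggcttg
Jun: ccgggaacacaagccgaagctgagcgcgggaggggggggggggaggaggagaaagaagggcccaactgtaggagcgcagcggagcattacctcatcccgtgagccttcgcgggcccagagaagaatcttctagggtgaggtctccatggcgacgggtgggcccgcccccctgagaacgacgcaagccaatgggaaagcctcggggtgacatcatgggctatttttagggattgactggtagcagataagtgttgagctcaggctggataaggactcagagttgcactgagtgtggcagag
Dusp1: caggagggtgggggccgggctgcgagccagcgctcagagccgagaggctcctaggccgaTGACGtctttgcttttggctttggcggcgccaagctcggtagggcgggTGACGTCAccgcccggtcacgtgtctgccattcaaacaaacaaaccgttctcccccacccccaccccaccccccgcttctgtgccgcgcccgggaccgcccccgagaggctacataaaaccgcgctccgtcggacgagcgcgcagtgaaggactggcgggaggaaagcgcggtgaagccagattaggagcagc

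Fos carried 2 cores outside a full site, with first bases at -129 and -66 from the start, and Fosb carried 1 at -60. Dusp1 was the 1 member of those in the table with the full CRE, at -143, and it had a core at -191. Jun had neither in this window. The table held windows for 8 of the 10 members, without Egr1 and Ier2, and 32851 windows in all. The full CRE was in 1 of 8 member windows and in 1.79% of all windows. A core outside a full site was in 6 of 8, against 19.5% of all windows. The AP-1 site TGANTCA (7.81% of all windows) and the CArG box, the core of the serum response element (1.63%), were in 0 of the 8. The SP1 site GGGCGG was in 6 of 8 (35.7%), and TATAAA in 2 of 8 (13.6%). Both strands were searched. G and C made up 46.7% of the Jund window and 58.7% (Fos) to 72.3% (Nr4a1) of the other member windows. The median over all windows was 52.7%, and the shares were not adjusted for this. In Dusp1 the SP1 matches at -150 and -135 lie on either side of the full CRE without overlapping it, and in Fosb the SP1 matches at -235 and -230 overlap each other. Jund, whose window was also in the table, had no match to any of these motifs. A match describes letters in the window and does not show binding. Sites outside these windows, and any in Egr1 and Ier2, were not searched, so 0 matches does not mean that a gene lacks the site.

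Before quantile normalization the median log2 value of an array ran from 6.34 to 6.45. The number of arrays limits the precision. Of the 10 genes listed as KLS markers 8 were measured, and their mean log2 level ran from 8.14 to 8.44 on KLS and from 6.65 to 7.34 on MEP arrays. Cd34, Flt3 and Hlf, genes of early progenitors, were among those past the threshold toward KLS cells. All 10 MEP markers were measured, at means of 9.04 to 9.14 on KLS and 9.30 to 9.47 on MEP arrays, with Rhd and Tfrc past the threshold toward MEP cells. On arrays no level is a true 0, so no marker could be called absent. WT MEP 1 stood apart from the other MEP arrays: its B cell markers (7 of 8 measured) averaged 9.27, against 7.08 to 7.16, and its neutrophil markers (11 of 11) 10.04, against 8.52 to 9.24. Leading values are also given without WT MEP 1 below. For some lists both WT MEP arrays lay above both TG MEP arrays. Neutrophil means were 10.04 and 9.24 in WT and 8.54 and 8.52 in TG MEP cells. Late erythroid means (5 of 8 measured) were 9.31 and 9.12 against 8.39 and 8.52. The KLS and MEP marker means of WT and TG overlapped on MEP arrays. The part of such differences in the genotype comparisons was not tested.

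Of the AP-1 subunits, Fos had its 4 KLS arrays in a narrow band above the MEP arrays. Its log2 level was 6.29 and 6.65 on the WT KLS arrays, 6.58 and 6.59 on the TG KLS arrays, 6.12 and 5.40 on the WT MEP arrays and 5.43 and 5.97 on the TG MEP arrays. Every KLS array was above every MEP array, and within MEP cells WT MEP 1 and TG MEP 2 were the higher arrays of their groups. The KLS mean was 6.53 ± 0.16 and the MEP mean 5.73 ± 0.37 (SD, n = 4 each). The difference of 0.80 ± 0.19 (SE, 95% interval 0.38 to 1.22), or 1.74-fold, missed limma's threshold (adjusted p = 0.0735 over all genes).

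Jun encodes the main activating partner of Fos. It was at 8.27 and 8.57 on the WT KLS arrays and at 8.27 and 8.62 on the TG KLS arrays, and thus nearly level across KLS cells. In MEP cells it was at 8.08 and 6.55 on the WT arrays and at 6.57 and 8.08 on the TG arrays. The MEP arrays formed a high pair, WT MEP 1 and TG MEP 2, just below the KLS arrays, and a low pair, WT MEP 2 and TG MEP 1, with 1 array of each genotype in either pair. The KLS mean of 8.43 ± 0.19 exceeded the MEP mean of 7.32 ± 0.88 (SD, n = 4 each) by 1.12 ± 0.38 (SE, 95% interval 0.25 to 1.98), not past limma's threshold (adjusted p = 0.202).

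Fosb, a Fos-type subunit, split the KLS arrays instead. It was at 6.77 and 7.92 on the WT KLS arrays and at 6.75 and 8.41 on the TG KLS arrays, so array 2 was higher in both genotypes. On the MEP arrays it was at 6.42 and 6.07 in WT and at 5.91 and 6.35 in TG cells, all below every KLS array. KLS cells averaged 7.46 ± 0.83 and MEP cells 6.19 ± 0.24 (SD, n = 4 each), a difference of 1.27 ± 0.36 (SE, 95% interval 0.45 to 2.10) that did not pass limma's threshold (adjusted p = 0.130).

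Junb and Jund, a Jun-type subunit of growth control and one found in most resting cells, showed no such separation. Junb ran from 6.47 to 6.85 on KLS and from 6.20 to 6.82 on MEP arrays, with a difference of 0.04 ± 0.15 (SE, 95% interval -0.29 to 0.37). Jund ran from 7.47 to 7.68 on KLS and from 7.38 to 7.73 on MEP arrays, with a difference of 0.0016 ± 0.11 (SE, 95% interval -0.25 to 0.25). Both directions turned under another scaling: centring each array on its median gave -0.03 for Junb and -0.09 for Jund, and the values as deposited gave -0.02 for Jund. The intervals of both leave out a 2-fold difference in either direction.

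Dusp1, the phosphatase that ends kinase signalling, had the same pair of higher MEP arrays as Jun, with a different highest array. It was at 8.41 and 9.05 on the WT KLS arrays, 8.72 and 8.75 on the TG KLS arrays, 8.37 and 6.98 on the WT MEP arrays and 7.13 and 7.80 on the TG MEP arrays. The highest MEP array, WT MEP 1, lay just below the lowest KLS array. KLS cells averaged 8.73 ± 0.26 and MEP cells 7.57 ± 0.64 (SD, n = 4 each). The difference of 1.16 ± 0.29 (SE, 95% interval 0.49 to 1.83), or 2.23-fold, did not pass limma's threshold (adjusted p = 0.0965).

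**Figure D1:**
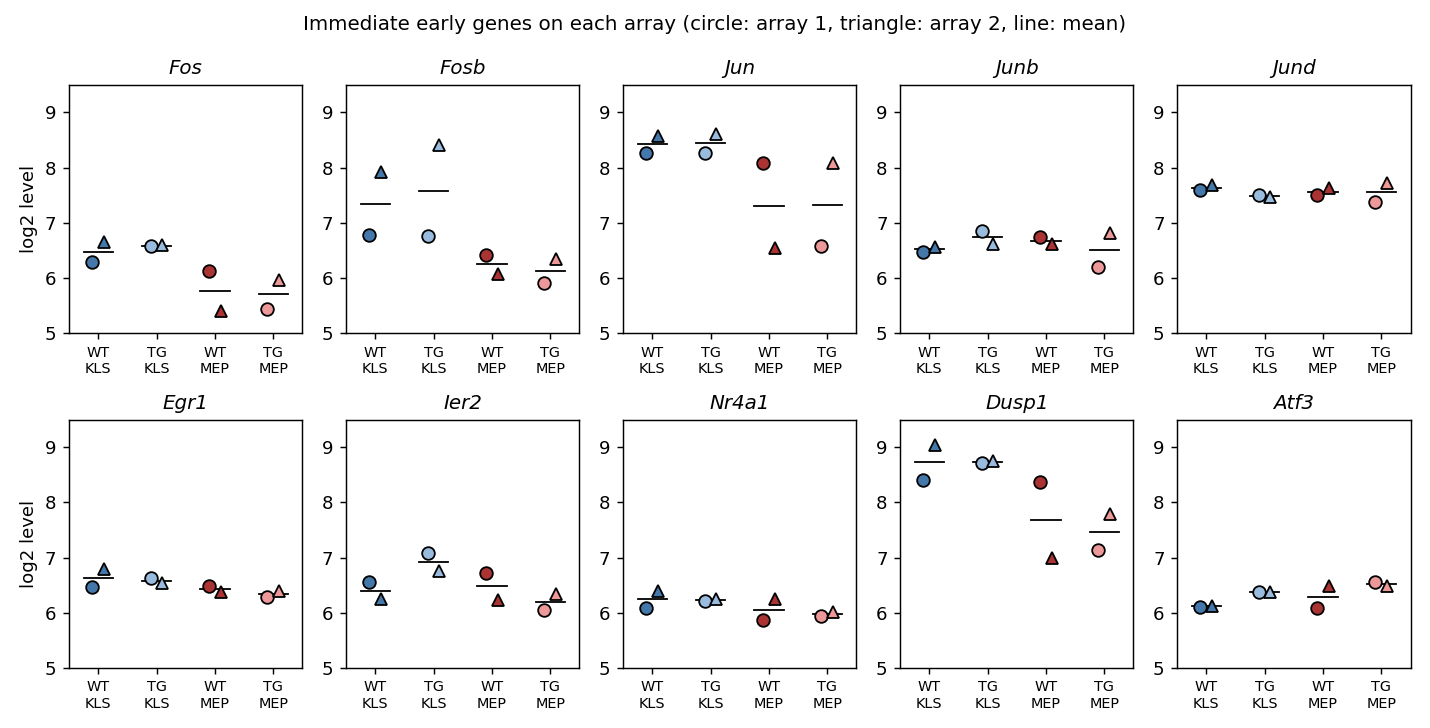
Log2 level (y axis, quantile normalized) of each of the 10 genes on the 8 arrays by group (x axis); circles are array 1, triangles array 2 and lines the group mean. For Fos, Fosb, Jun and Dusp1 every KLS array lies above every MEP array, and for Jun the MEP arrays form a pair near 8.08 and a pair near 6.55.

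The other factors moved little between the cell types. Their group means lay at percentiles 48.7 to 54 of all genes for Egr1 and 38.5 to 44 for Nr4a1. For Ier2 they lay at 44.6 to 60.8 and for Atf3 at 39.9 to 53.3. Whether such levels exceed the array background was not tested. Egr1 ran from 6.47 to 6.80 on KLS and from 6.29 to 6.48 on MEP arrays, a difference of 0.22 ± 0.11 (SE). Nr4a1 ran from 6.09 to 6.39 and from 5.86 to 6.24, also a difference of 0.22 ± 0.12. Ier2 ran from 6.24 to 7.08 and from 6.05 to 6.72, a difference of 0.32 ± 0.15. Atf3 was the 1 member with a lower mean in KLS cells, at 6.11 to 6.37 against 6.08 to 6.55, a difference of -0.16 ± 0.11. None of these 4 passed limma's threshold (adjusted p from 0.386 to 0.650), and the KLS and MEP arrays overlapped for each. With WT MEP 1 left out, Egr1 was at 0.25, Ier2 at 0.45, Nr4a1 at 0.12 and Atf3 at -0.26.

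In the comparison of KLS with MEP cells, 0 of the 10 genes passed limma's adjusted threshold, where 1.6% of all genes did and 1.2% did so with the higher level in KLS cells. At an unadjusted p under 0.05 there were 4, Fos, Fosb, Jun and Dusp1, against 14.3% of all genes. For the same 4 the KLS arrays lay wholly above the MEP arrays, which held for 4.41% of all genes. The mean was higher in KLS cells for 9 of 10, with 53.5% of all genes above 0, and the median difference was 0.27, against 0.01 over all genes. The 0 genes past the threshold refer to the fit over all arrays, and this did not hold in every run without a single array. Such runs leave a group without a replicate, so only sizes are given for them. Without WT MEP 1 the difference was 0.98 for Fos, 1.51 for Dusp1, 1.50 for Jun and 1.36 for Fosb, each larger than over all arrays. Over the other single arrays left out, the difference of Jun was as low as 0.73 without WT MEP 2 and 0.74 without TG MEP 1, and that of Dusp1 0.81 without WT MEP 2. Fosb was at 0.86 without TG KLS 2. In bulk samples, fewer expressing cells and less RNA per cell cannot be told apart.

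Genes listed as markers of other cells also differed between KLS and MEP arrays. All 7 mast cell and basophil markers were higher in KLS cells, with means of 6.62 to 7.24 on KLS and 5.87 to 6.57 on MEP arrays. Of these 7, Gata2 was also listed as a KLS marker, and it differed by 0.11. Past limma's threshold were 3 of the 7, among them Mcpt8, a basophil protease gene, at 1.68 ± 0.18 (SE, adjusted p = 0.00837). All 11 neutrophil markers were higher in KLS cells, at means of 9.78 to 10.60 against 8.52 to 10.04, and 2 passed, one of them the granule gene Ngp at 1.22 ± 0.24 (adjusted p = 0.0458). Of 10 monocyte and macrophage markers 9 were higher, at means of 7.46 to 8.15 against 6.41 to 7.60, and 2 passed, one of them Cybb, a subunit of the phagocyte oxidase, at 1.36 ± 0.24 (adjusted p = 0.0362). B cell markers were higher in KLS cells for 7 of 7, T and NK cell markers for 8 of 10, stromal and endothelial markers for 8 of 8, megakaryocyte markers for 4 of 6 and late erythroid markers for 0 of 5, with 0, 1, 1, 0 and 0 past the threshold. In these lists the genes past it were Nkg7 and the endothelial-type gene Emcn. Whether any of these markers came from other cells than KLS cells was not tested, nor was their part in the differences of the early response genes.

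The comparison of TG with WT mice concerns whether the altered Hmga2 moved these genes. In KLS cells the log2 change was 0.11 ± 0.26 for Fos, 0.23 ± 0.51 for Fosb, 0.02 ± 0.54 for Jun and 0.0047 ± 0.42 for Dusp1 (SE). In MEP cells it was -0.06 ± 0.26, -0.12 ± 0.51, 0.02 ± 0.54 and -0.21 ± 0.42 in the same order. The 95% intervals of Fosb and Jun in either cell type, and of Dusp1 in MEP cells (-1.16 to 0.73), reached past a 2-fold change in at least 1 direction, so these data do not exclude changes of that size. Each of these 4 genes took the opposite sign in both cell types when some single array was left out. With WT MEP 1 left out, the changes in MEP cells were 0.30 for Fos, 0.06 for Fosb, 0.78 for Jun and 0.48 for Dusp1.

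Ier2 had the largest genotype change of the members in KLS cells. It was at 6.55 and 6.24 on the WT KLS arrays and at 7.08 and 6.76 on the TG KLS arrays, and the TG arrays were both above the WT arrays. The change was 0.52 ± 0.21 (SE, 95% interval 0.03 to 1.01), unadjusted p = 0.0384 and not past limma's threshold (adjusted p = 1). In MEP cells Ier2 was at 6.72 and 6.23 in WT and at 6.05 and 6.34 in TG, a change of -0.28 ± 0.21 with overlapping arrays. With WT MEP 1 left out that change was -0.04, and with WT MEP 2 left out -0.53. The difference between the changes in both cell types was 0.80 ± 0.30 (95% interval 0.12 to 1.49), which limma did not call (unadjusted p = 0.0268, adjusted p = 1). Leaving out WT MEP 1 gave 0.56 and leaving out WT MEP 2 gave 1.05, the lowest and highest over single arrays.

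Atf3 was higher in TG KLS cells, at 6.37 on both arrays against 6.11 on both WT KLS arrays, and these differences between replicates were the smallest of any member. In MEP cells it was at 6.08 and 6.48 on the WT arrays and at 6.55 and 6.48 on the TG arrays, with the ranges overlapping. With KLS and MEP cells averaged, TG exceeded WT by 0.25 ± 0.11 (SE, 95% interval -0.0086 to 0.50), with an adjusted p = 0.999 by limma. Without WT MEP 1 it was 0.15, and the change in MEP cells alone went from 0.23 to 0.03. Junb was 0.22 ± 0.21 higher and Jund 0.15 lower in TG KLS cells, at a change of -0.15 ± 0.16, and for both the TG and WT KLS arrays did not overlap.

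Over the 10 genes, 0 passed limma's threshold for genotype in KLS cells, in MEP cells, averaged over both or as a difference between the cell types, with 0% of all genes called in each. At an unadjusted p under 0.05 there was 1 member in KLS cells (Ier2; 2.51% of all genes) and 0 in MEP cells (3.71%). Averaged over both there were 0 (3.26%), and for the difference between the cell types 1, again Ier2 (2.27%). The TG and WT arrays did not overlap for 4 of 10 in KLS cells, where 29% of all genes did not, and 3 of these 4 were higher in TG cells, beside 11.7%. In MEP cells the arrays did not overlap for 0 of 10, against 30.2%. The median change was 0.07 in KLS cells and -0.08 in MEP cells, beside -0.02 and -0.0078 over all genes. The comparisons with both cell types share their arrays with those within 1 cell type.

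**Figure D2:**
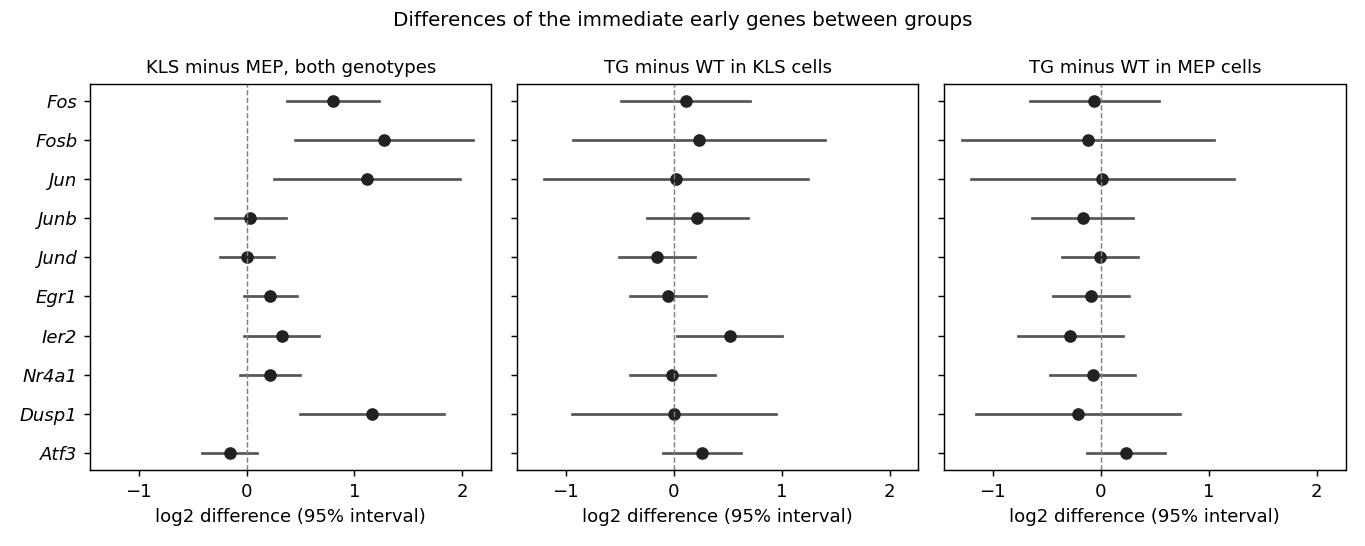
Log2 difference (x axis) of each gene (y axis) with its 95% interval, from the limma fit over all 8 arrays, for KLS against MEP cells and for TG against WT in each cell type. The intervals of Fos, Fosb, Jun and Dusp1 lie above 0 in the first panel, although none passed the adjusted threshold, and in the genotype panels only the interval of Ier2 in KLS cells leaves out 0.

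Since handling can induce these genes, the 2 arrays of each group were set against each other. For Jun, Dusp1 and Fos the difference between the 2 MEP arrays of either genotype was larger than the genotype change in MEP cells. Jun differed by 1.53 on the log2 scale between the WT MEP arrays and by -1.51 between the TG MEP arrays (array 1 minus array 2), or 2.89-fold and 2.84-fold in opposite order. Among all 19938 genes, 128 differed at least as much between the WT MEP arrays and 28 between the TG MEP arrays. Dusp1 differed by 1.39 and by -0.67, and Fos by 0.72 and by -0.54, also with WT MEP 1 and TG MEP 2 as the higher arrays.

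Fosb differed by -1.15 between the WT KLS arrays and by -1.65 between the TG KLS arrays, or 2.22-fold and 3.14-fold, with array 2 higher in both. Between the TG KLS arrays 11 of all genes, Fosb among them, differed as much. Fos and Dusp1 did not split the TG KLS arrays, where they differed by -0.0097 and -0.03. Between the WT KLS arrays they differed by -0.36 and -0.64, with array 2 higher as for Fosb.

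The members past 2 fold between the arrays of a group were 1 in WT KLS (Fosb; 1.12% of all genes), 1 in TG KLS (Fosb; 0.612%), 2 in WT MEP (Jun and Dusp1; 2.11%) and 1 in TG MEP cells (Jun; 0.557%). The median size of the difference over the members was 0.39 in both WT MEP and TG MEP cells, beside 0.19 and 0.15 over all genes. In WT KLS it was 0.31 beside 0.18, and in TG KLS 0.06 beside 0.17. Array 1 was the higher for 7 of 10 members in WT MEP and for 1 of 10 in TG MEP cells. It was the higher for 1 of 10 in WT KLS and for 5 of 10 in TG KLS cells. Over all genes the median of array 1 minus array 2 was -0.08 in WT MEP and -0.05 in TG MEP cells. In WT KLS it was 0.04 and in TG KLS 0.08. Of all genes past 2 fold, array 1 was the higher for 415 of 421 in WT MEP and 85 of 111 in TG MEP cells. The same held for 96 of 223 in WT KLS and 86 of 122 in TG KLS cells.

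**Figure D3:**
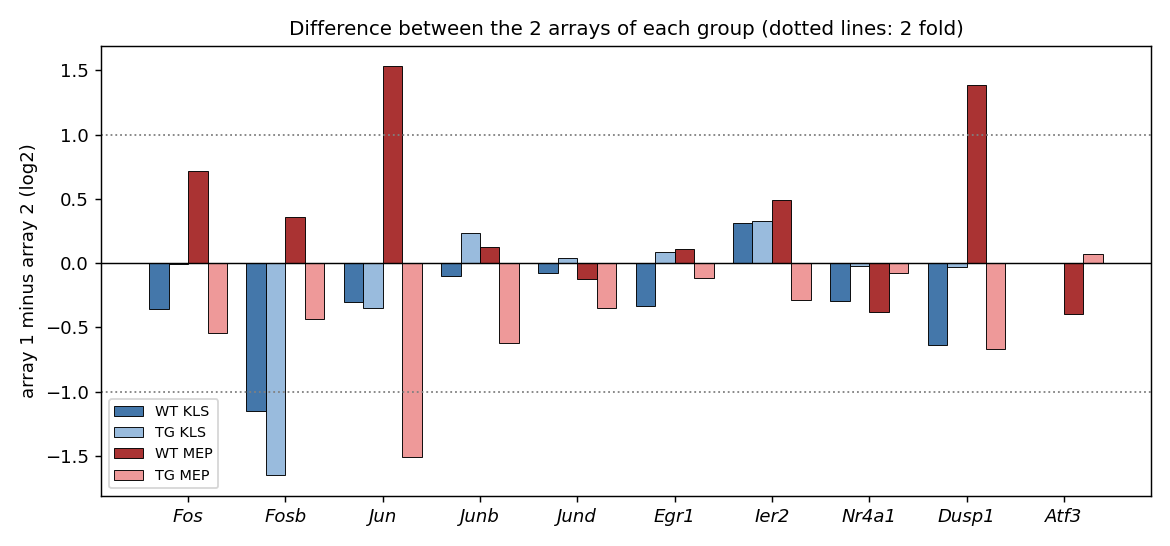
Log2 level on array 1 minus that on array 2 (y axis) for each gene (x axis) in the 4 groups (bars); dotted lines mark a 2-fold difference. Jun, Dusp1 and Fos point up in WT MEP and down in TG MEP cells, and Fosb points down in both KLS groups, by 1.15 and 1.65.

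Cell type markers were read beside this pattern. In WT MEP cells array 1 had the higher level for 7 of 7 B cell markers, all past 2 fold, for 11 of 11 neutrophil, 9 of 10 monocyte and macrophage and 7 of 8 KLS markers. In TG MEP cells, where Jun was high on array 2, array 2 was the higher for 5 of 7 B cell, 7 of 11 neutrophil, 8 of 10 monocyte and macrophage and 4 of 8 KLS markers, with 0 of these past 2 fold. The B cell mean there was 7.08 on array 1 and 7.11 on array 2, and the neutrophil mean 8.54 and 8.52. Between the WT KLS arrays 10 of 11 neutrophil markers were higher on array 2, with means of 9.78 and 10.60, and between the TG KLS arrays 5 of 11 were, at 9.98 and 9.85. The part of other cells in the differences between the arrays of any group, WT or TG, was not tested.

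Heat shock genes, another class that handling can induce, were read in the same way, and 11 of the 14 listed were measured. Their mean level ran from 10.20 to 10.51 over the 8 arrays. In WT MEP cells array 1 was the higher for 1 of 11, Hspa1a. It was the higher for 4 of 11 in TG MEP, 5 of 11 in WT KLS and 3 of 11 in TG KLS cells. Hspa1a, the inducible heat shock protein 70 gene, was at 7.88 and 8.36 on the WT KLS arrays, 7.50 and 9.38 on the TG KLS arrays, 7.59 and 6.86 on the WT MEP arrays and 7.77 and 8.64 on the TG MEP arrays. It was higher on TG KLS 2, WT KLS 2, WT MEP 1 and TG MEP 2 than on the other array of each group, as Fosb was. Hspa1a is also the 1 heat shock gene past 2 fold between the arrays of a group, in TG KLS cells. The part of handling in these differences was not tested. Between KLS and MEP cells 0 of 11 passed limma's threshold, and the smallest p belonged to the mitochondrial chaperone gene Hspd1 at -0.23 ± 0.10 (SE).

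Other early response genes were taken from 4 lists. Of 22 AP-1 partners and other early transcription factors, 2 passed limma's threshold toward KLS cells and 0 toward MEP cells, with 18 of 22 above 0 and a median of 0.12. They were Nfil3, a basic leucine zipper repressor, at 0.95 ± 0.19 (SE, adjusted p = 0.0492), and Batf, an AP-1 partner of immune cells, at 0.83 ± 0.16 (adjusted p = 0.0458). Of 28 further early response genes, 1 passed, Rhob, a small GTPase gene of rapid induction, at 1.46 ± 0.25 (adjusted p = 0.0362), with 23 of 28 above 0 and a median of 0.16. With median centring none of these 3 passed (adjusted p = 0.0998, 0.0705 and 0.0508 for Nfil3, Batf and Rhob), and Nfil3 did not pass as deposited (0.0684) or with robust variances (0.0531). Leaving out single arrays also ended these calls. In those runs the difference ran from 1.12 to 1.8 for Rhob, from 0.65 to 1.02 for Batf and from 0.77 to 1.12 for Nfil3.

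Kinase feedback genes and the upstream kinases held 0 called genes between the cell types with all 8 arrays. With WT MEP 1 left out, the median difference was 0.05 for the feedback genes and 0.19 for the upstream kinases and factors. For the 28 further early response genes it was 0.29. Of 13 feedback genes, Dusp16, a phosphatase of stress kinases, had the smallest p at -0.36 ± 0.12 (SE). Of 16 measured upstream kinases and factors, the smallest p was that of Elk3, a partner of the serum response factor, at 0.88 ± 0.20. For genotype, 0 genes of the 4 lists or the heat shock list passed limma's threshold in any comparison with all 8 arrays. In KLS cells the genes with the smallest p in each list were Batf at -0.38 ± 0.23, Pim1 at -0.26 ± 0.14, Spred2 at 0.53 ± 0.21, Elk1 at -0.25 ± 0.15 and Hspb1 at -0.29 ± 0.17. In MEP cells they were Jdp2 at -0.41 ± 0.19, Btg2 at -1.58 ± 0.47, Dusp2 at -0.42 ± 0.23, Rps6ka5 at -0.50 ± 0.28 and Hspa1a at 0.98 ± 0.55. Of the 28 further early response genes 1 was above 0 in MEP cells, with a median of -0.30, where 48% of all genes were above 0. On WT MEP 1 their mean level was 7.21, against 6.62 on WT MEP 2 and 6.37 and 6.66 on the TG MEP arrays. Without WT MEP 1 the median was -0.09, with 9 of 28 above 0. Without WT MEP 2 it was -0.51, with 2 of 28 above 0. Btg2, an antiproliferative gene, was at -0.74 without WT MEP 1 and at -2.42 without WT MEP 2. Dusp2 was at -0.11 without WT MEP 1.

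Averaged over both cell types the smallest p in each list belonged to Jdp2 at -0.33 ± 0.14, Pim1 at -0.35 ± 0.10, Spred2 at 0.27 ± 0.15, Elk4 at -0.30 ± 0.17 and Hspb1 at -0.21 ± 0.12. As a difference of the genotype change between KLS and MEP cells they were Egr2 at -0.33 ± 0.21, Cd69 at 1.77 ± 0.89, Dusp7 at 0.75 ± 0.36, Map2k1 at 0.58 ± 0.28 and Bag3 at -0.31 ± 0.28 (SE). None of these 10 values passed limma's threshold (adjusted p from 0.999 to 1). Without WT MEP 1, Elk4 was at -0.17, Cd69 at 0.61 and Bag3 at -0.01.

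Klf6 and Zfp36, picked here after their values were seen, had array patterns close to those of the members. Klf6, a zinc finger factor, was at 7.36 and 8.42 on the WT KLS arrays and at 7.51 and 8.79 on the TG KLS arrays, with array 2 higher in both as for Fosb. In MEP cells it was at 7.30 and 6.32 in WT and at 5.80 and 7.47 in TG, with the same high and low arrays as Jun. Zfp36, which encodes an RNA-binding protein that shortens the life of unstable messages, was at 7.93 and 6.60 on the WT MEP arrays and at 6.20 and 7.06 on the TG MEP arrays.

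**Figure D4:**
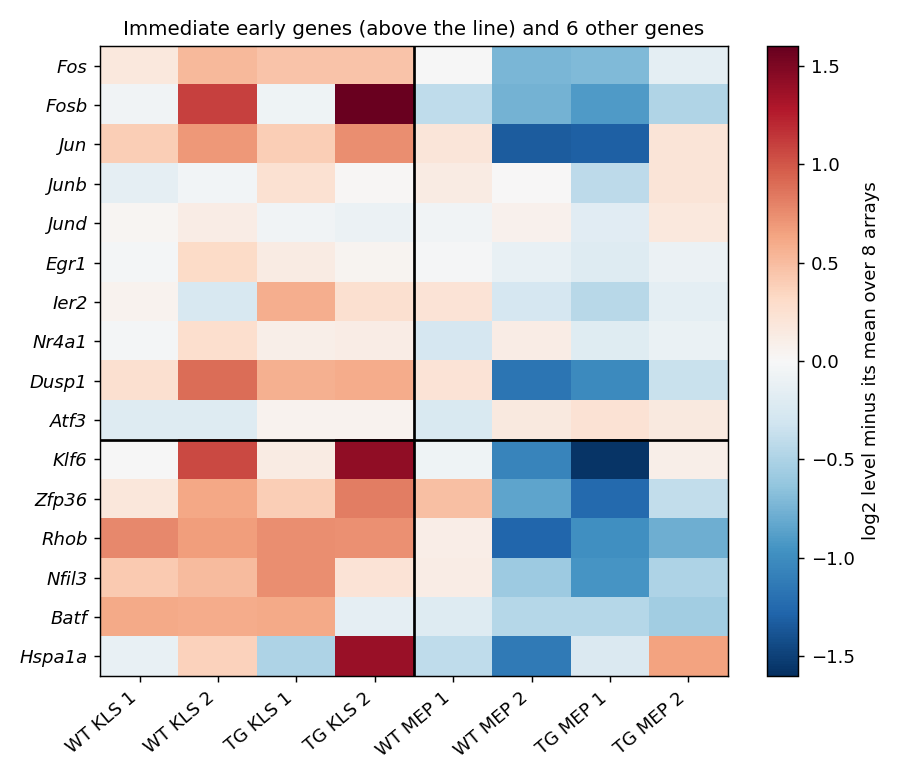
Log2 level minus the gene's mean over the 8 arrays (colour) for the 10 genes above the horizontal line and 6 others below it (rows), by array (columns), with KLS arrays left of the vertical line. Jun, Dusp1, Klf6 and Zfp36 are lowest on WT MEP 2 and TG MEP 1, while Fosb and Klf6 are highest on WT KLS 2 and TG KLS 2.

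The mean of the 10 genes, each centred on its own mean over the 8 arrays, was 0.04 and 0.34 on the WT KLS arrays, 0.24 and 0.38 on the TG KLS arrays, -0.02 and -0.40 on the WT MEP arrays and -0.51 and -0.06 on the TG MEP arrays. The order of the arrays thus put WT MEP 1 and TG MEP 2 next to WT KLS 1, and WT MEP 2 and TG MEP 1 lowest. Among the members Fos lay closest to this mean, with a root mean square difference of 0.18 over the 8 arrays, and Fosb farthest at 0.58. Outside the members, among genes with a range of at least 1, those closest were Neurl3 at 0.11, Zfp52 at 0.11, Slc50a1 at 0.14, Ddx60 at 0.14 and Ubxn11 at 0.16. Their ranges were 1.00 to 1.10, just above that limit. They were picked as the closest of the genes past it, and their likeness was not tested.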

How the data were processed

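RNA levels in 8 sorted cell preparations were read from the deposited log2 values, 1 per probe set and array. Affymetrix Expression Console made these values, per the submitters' processing notes. The sources used here do not give its version, summarization or normalization. The log2 scale was read from the deposited values, which run from 1.71 to 14.0. Because array medians spanned 0.106, above the limit of 0.1, all 35556 probe sets were quantile normalized. The 21789 probe sets with 1 symbol gave 19938 genes, by the brightest probe set per gene.

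Groups and replicate numbers came from sample titles. A mean per group was fitted over all 8 arrays with limma 3.58.1 in R 4.3.3 (eBayes, 4 residual and 4.82 prior degrees of freedom). Tests were two-sided, with Benjamini-Hochberg adjustment over all genes and a threshold of 0.05; the fit was tested on simulated data. The labels call the preparations independent, so p-values measure the spread between pools of mice.

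The members, lists and tests were chosen with earlier results of these data known. Named were the 10 members, markers, and in each list and comparison the genes past the threshold, or else that with the smallest p, and the 5 genes closest in pattern to the members' mean, with clone and model names skipped. Same-numbered arrays deviated together in 3 of the 6 pairs of groups and in opposite directions in the 3 pairs with TG MEP (correlations from -0.28 to 0.38), so numbers were not taken to pair samples. Alternatives were scaling, a filter on the dimmest 30% of genes, the probe set rule, variance models, the replicate block, 1 cell type alone and single arrays left out. Leaving out WT MEP 1 or WT MEP 2 for the other lists was added after seeing the data.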

Additional observations from a re-analysis of the deposited data

Results flagged for a closer look

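In MEP cells the level of Atf3 on WT MEP 1, 6.08, lay far below the other 3 MEP arrays, which ran from 6.48 to 6.55. The gap was 0.84 of the whole range, above Dixon's 95% critical value for 4 samples. It was the 1 such gap among 20 sets of 4 arrays, each of 1 gene in 1 cell type, and chance gives about 1 in 20. The B cell and neutrophil markers that were higher on this array are given above, and their part in the value of Atf3 was not tested.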

How the results depend on the processing

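No member passed the threshold for genotype under any alternative run. Between KLS and MEP cells 0 members passed under the other scalings, the dim filter, the mean over probe sets, either variance model and the replicate block. That 0 does not cover runs with single arrays left out, where 1 array remains in a group and only sizes are given. The difference then ran from 0.62 to 0.98 for Fos and from 0.81 to 1.51 for Dusp1. Both were highest without WT MEP 1. Under other scaling, directions turned for Jund (-0.0162 as deposited, -0.0944 with median centring) and Junb (-0.0304 with median centring) between cell types and for Fos in MEP cells by genotype (0.0314 as deposited, 0.037 with median centring). With single arrays left out, the KLS minus MEP difference ran from -0.12 to 0.19 for Junb and from -0.0854 to 0.0886 for Jund. By genotype in KLS cells Fos ran from -0.0691 to 0.29, Fosb from -0.59 to 1.06, Jun from -0.15 to 0.20 and Dusp1 from -0.31 to 0.32. In MEP cells Fos ran from -0.42 to 0.30, Fosb from -0.33 to 0.10, Jun from -0.75 to 0.78 and Dusp1 from -0.91 to 0.48. The members' median ran from -0.14 to 0.27 by genotype in KLS cells, from -0.33 to 0.13 in MEP cells, from -0.10 to 0.16 averaged and from -0.0932 to 0.50 for the difference between cell types. The cause was not tested.

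Same-numbered arrays share only a number. The replicate block moved the count of all genes called between cell types from 319 to 562, changed no member's call and gave Fosb an adjusted p = 0.0546 by limma. A crossed pairing that exchanges the TG MEP numbers, added after seeing the data, called 2 members and 1040 genes between cell types and 0 members by genotype. Median centring called 191 genes between cell types. The counts of all genes called also moved with single arrays left out, between cell types and by genotype in MEP cells. The number of arrays limits every comparison.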
